A study of Homo sapiens with 6 samples.

Results

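The genes described are 9 genes of zinc homeostasis in the breast cancer cell line BT549: the metallothioneins MT1E, MT1F, MT1G, MT1M, MT1X and MT2A, their transcriptional regulator MTF1, the zinc exporter SLC30A1 and the zinc importer SLC39A10. They were taken by gene symbol from a deposited table of 19923 genes. All 9 were found, and all 9 were among the 14086 genes with counts high enough to test. BT549 cells in 3 libraries labelled control were compared with BT549 cells in 3 libraries labelled as treated with ENL. What ENL stands for, and its dose, timing and vehicle, are not in the labels, and ENL is used here as a group name only. The labels name no genetic change in either group, and they describe 1 cell line, so nothing here extends to other cells. Nothing in the labels says that the replicates were separate cultures, so the p-values measure the spread between these libraries, which may be technical.

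Metallothioneins are small cysteine-rich proteins that bind zinc, copper and cadmium and buffer the free metal in the cell. MTF1 is a zinc finger transcription factor that senses zinc, binds short DNA motifs called metal response elements and switches on metallothionein genes and SLC30A1. SLC30A1 (ZnT1) carries zinc out of the cell across the plasma membrane. SLC39A10 (ZIP10) carries zinc in, and its gene is known to be repressed by MTF1 when zinc is plentiful.

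The 6 metallothionein members lie in 1 cluster on chromosome 16 that holds 11 of the family genes in the table, at chr16:56565049-56684196 in GRCh38 by the GENCODE 29 annotation, a stretch of 119.1 kb. Each of the 6 had a coding sequence of 186 bases, that is 62 codons with the stop codon, of which 20 were the cysteine codons TGC or TGT. The 15 pairs of coding sequences were 88.7% to 95.2% identical, and the longest run of bases shared by a pair was 32 to 96 bases long. Whole transcripts were less alike, at 39.8% to 75.9% identity. The coding sequences of 4 members are shown because reads from such similar genes can be divided between them in counting. Capitals mark bases that differ from MT1X in a pairwise alignment.
MT1X: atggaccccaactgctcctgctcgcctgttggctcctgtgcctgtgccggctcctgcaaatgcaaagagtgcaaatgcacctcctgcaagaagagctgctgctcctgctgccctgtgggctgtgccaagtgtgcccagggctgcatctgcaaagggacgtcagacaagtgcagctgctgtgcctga
MT2A: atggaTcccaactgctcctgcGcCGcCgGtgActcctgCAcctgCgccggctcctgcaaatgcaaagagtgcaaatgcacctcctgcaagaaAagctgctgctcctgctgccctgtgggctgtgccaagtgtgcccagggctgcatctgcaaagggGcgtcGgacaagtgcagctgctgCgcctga
MT1E: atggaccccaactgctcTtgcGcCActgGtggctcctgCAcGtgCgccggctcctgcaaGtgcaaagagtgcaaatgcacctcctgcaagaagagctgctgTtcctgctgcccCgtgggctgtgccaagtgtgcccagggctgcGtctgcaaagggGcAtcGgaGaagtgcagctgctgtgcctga
MT1F: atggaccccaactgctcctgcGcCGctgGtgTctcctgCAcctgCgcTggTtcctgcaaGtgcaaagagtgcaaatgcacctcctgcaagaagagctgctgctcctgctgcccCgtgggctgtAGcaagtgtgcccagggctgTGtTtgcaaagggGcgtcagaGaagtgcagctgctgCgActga
MT2A had 14 capitals, MT1E had 17 and MT1F had 21. The annotation placed an unnamed processed transcript, AC026461.1, over 321 exon bases of MT1X on the same strand. None of the other 8 genes shared exon bases with an annotated gene.

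RefSeq promoter windows of 300 bases, from 250 bases before to 50 after a transcription start in GRCh38.p14, were given for 5 of the 9 genes: MT2A, MT1X, SLC30A1, SLC39A10 and MTF1. They were searched on both strands for the core of the metal response element, written TGCACNC or TGCGCNC. MT2A held 8 matches, a number reached by 0.0199% of 35116 RefSeq promoters of this length. MT1X held 4 matches, reached by 0.601%, and SLC30A1 held 2, reached by 8.6%. The upstream one of the windows of SLC39A10 held no match, and the downstream one held 1, where 29.6% of promoters held at least 1. MTF1 held none. A match is a string of letters and not a shown binding site. The parts before the start are printed for the 3 genes with more than 1 match, with the matches in capitals, each on the strand of its gene. They lie at chr16:56608334-56608583 on the plus strand (MT2A), chr16:56682220-56682469 on the plus strand (MT1X) and chr1:211579162-211579411 on the minus strand (SLC30A1). The start is that of RefSeq. In GENCODE 29 the MT2A gene begins at 56608199 and the MT1X gene at 56682424. The printed MT2A stretch and the end of the MT1X stretch thus lie inside the genes as GENCODE gives them.
MT2A: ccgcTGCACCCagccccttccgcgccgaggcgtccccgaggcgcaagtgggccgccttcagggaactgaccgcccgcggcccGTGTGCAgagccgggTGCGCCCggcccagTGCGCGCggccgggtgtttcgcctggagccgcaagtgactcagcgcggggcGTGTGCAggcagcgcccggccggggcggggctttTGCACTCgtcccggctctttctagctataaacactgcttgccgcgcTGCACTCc
MT1X: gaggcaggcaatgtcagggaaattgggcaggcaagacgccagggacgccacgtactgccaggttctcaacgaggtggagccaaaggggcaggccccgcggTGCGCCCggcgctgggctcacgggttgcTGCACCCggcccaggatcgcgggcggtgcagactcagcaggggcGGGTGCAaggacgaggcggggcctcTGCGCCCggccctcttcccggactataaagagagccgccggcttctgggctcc
SLC30A1: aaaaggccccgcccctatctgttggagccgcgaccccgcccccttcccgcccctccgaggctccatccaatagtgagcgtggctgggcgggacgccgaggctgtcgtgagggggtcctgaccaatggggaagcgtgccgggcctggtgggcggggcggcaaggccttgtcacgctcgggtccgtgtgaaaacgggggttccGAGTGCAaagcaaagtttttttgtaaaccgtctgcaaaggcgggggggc
Of the matches, 7 in MT2A, 4 in MT1X and 1 in SLC30A1 lay before the RefSeq start. A TATA box, TATAAA, began 29 bases before the RefSeq start of MT2A and 30 bases before that of MT1X, and 11.5% of promoters held this string. The core of the antioxidant response element, TGACNNNGC, was found once in each of the 3 windows and in 13.3% of promoters.

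**Figure D1:**
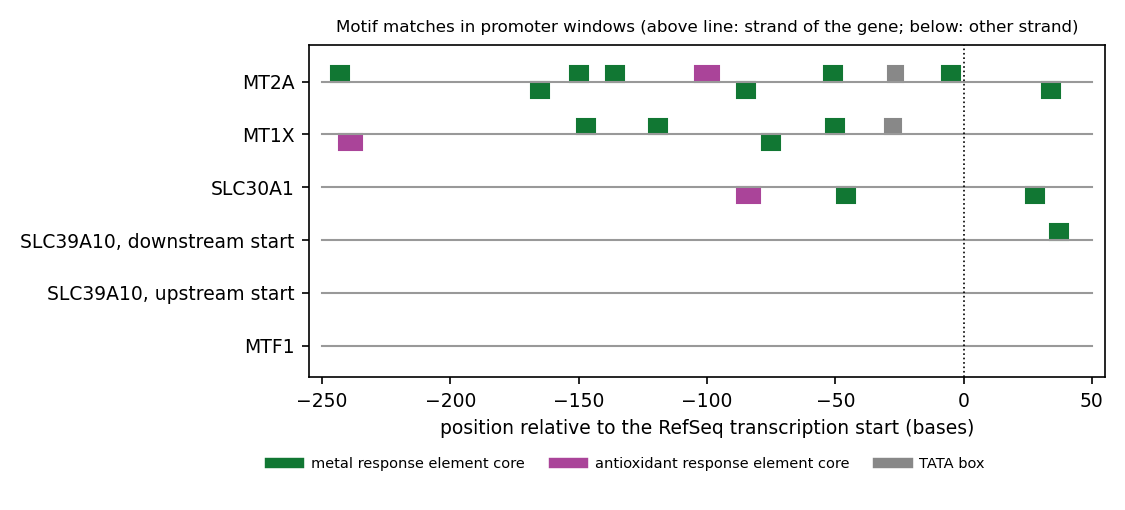
Positions of motif matches in the RefSeq promoter windows, in bases from the transcription start on the x axis, 1 line per window. Boxes above a line are on the strand of the gene and boxes below it on the other strand. The 8 metal response element matches of MT2A spread over the window, and SLC39A10 and MTF1 show 1 match and none.

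Library totals were 74457932 to 85310759 estimated counts. Of the values from 4 to 43, 70.8% to 73.1% by library were multiples of 4 or 1 above, where evenly spread whole numbers would give 50%. A fragment was therefore taken as about 4 of these units, which no source states. Levels are given in CPM, estimated counts scaled to a common library size by TMM. The summed level of 6 mesenchymal markers was 3354 to 4063 CPM in control and 6133 to 7030 CPM in ENL. Most of it was VIM, at 2744 and 5949 CPM on average, while SPARC went from 331 to 92.7 CPM. Of 7 luminal epithelial markers, with sums of 88.1 to 98.5 CPM in control and 98.5 to 127 CPM in ENL, CDH1, EPCAM and ESR1 were below 1 CPM in both groups and KRT8, KRT18, GATA3 and MUC1 were between 14.8 and 38.0 CPM. The summed level of 5 leukocyte markers was 8.22 to 13.1 CPM in control and 1.41 to 2.61 CPM in ENL, most of it CD14. ENL library 3 differed from ENL libraries 1 and 2 in short transcripts: over 359 genes with transcripts under 1000 bases and a mean of at least 5 CPM, metallothioneins left out, its median log2 difference from them was −0.37. Metallothionein transcripts are of that size, between 538 and 829 bases for the 6 members, so values without ENL library 3 are given below where they change a call.

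Metallothionein RNA was higher in ENL for 3 of the 6 members: MT1F 5.58-fold, MT1X 2.08-fold and MT1E 1.67-fold. The exporter SLC30A1 rose 1.44-fold, and the importer SLC39A10 fell to a level 1.92-fold lower. MT2A, MT1M, MT1G and MTF1 did not pass the test. Thus 4 of the 9 genes were called higher and 1 lower at an adjusted p below 0.05, where 20.0% of all tested genes were called higher and 18.4% lower, 38.4% in all. The 3 ENL libraries lay above the 3 control libraries in 5 of the 9 genes and below them in 2, against 26.4% and 27.6% of all tested genes, 54.0% in all. The median log2 fold change of the 9 genes was 0.53, and that of all tested genes was −0.02. The 5 genes above and this median include MT1G, which entered the tests through the group where it was high. Its place among them is no separate support for a rise. A difference in RNA level in bulk samples cannot be told apart from a difference in the number of cells that make it.

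**Figure D2:**
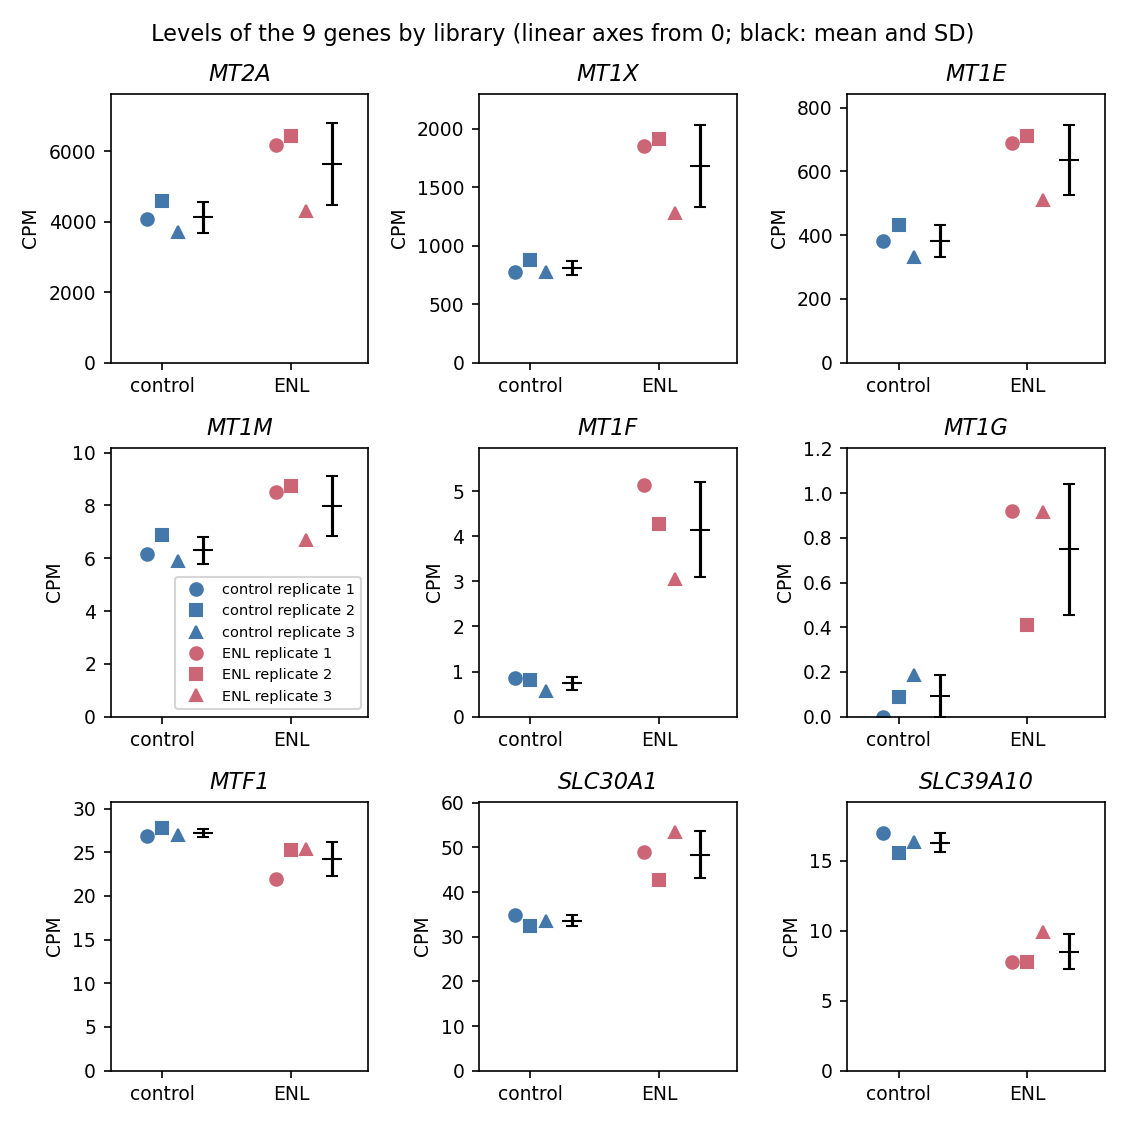
Level of each of the 9 genes in CPM (y axes, linear from 0, a scale per gene) in the 3 control and 3 ENL libraries (x axes). Points are libraries, and black marks are the group mean and SD. The groups do not overlap for MT1X, MT1E, MT1F, MT1G, MTF1, SLC30A1 and SLC39A10.

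MT2A, the most abundant metallothionein here and the main form in many human tissues, is at chr16:56608199-56609497 on the plus strand. It was at 4093, 4593 and 3721 CPM in control libraries 1, 2 and 3 and at 6170.2, 6432 and 4299 CPM in ENL libraries 1, 2 and 3. ENL libraries 1 and 2 were above every control library, and ENL library 3 was below control library 2, so the groups overlapped. The log2 fold change was 0.45 ± 0.17 (SE), with an adjusted p of 0.0770 in edgeR's quasi-likelihood test, from means of 4136 ± 438 and 5634 ± 1163 CPM (SD, n = 3 each). Without ENL library 3 it was 0.62 ± 0.10 with an adjusted p of 0.00491, and with transcript length and GC content corrected for it was 0.12 with an adjusted p of 0.146. Per kilobase of its longest annotated transcript the level was 5262 CPM in control and 7168 CPM in ENL.

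MT1X and MT1E, the next in abundance, encode widely expressed isoforms of the same zinc-binding protein family. MT1X, at chr16:56682424-56684196 on the plus strand, was at 774, 878 and 780.2 CPM in the control libraries and at 1856, 1911 and 1284 CPM in the ENL libraries. Every ENL library was above every control library, with ENL library 3 the lowest of its group. The means were 811 ± 58.0 and 1683 ± 347 CPM (SD, n = 3 each), a log2 fold change of 1.05 ± 0.16 (SE) with an adjusted p of 0.00276 in edgeR's quasi-likelihood test. MT1E, at chr16:56625475-56627112 on the plus strand, was at 380.1, 432 and 330.4 CPM in control and at 689, 711 and 511 CPM in ENL. Again the groups did not overlap, and ENL library 3 was the closest to the controls. MT1E had means of 381 ± 50.6 and 637 ± 109.7 CPM (SD, n = 3 each) and a log2 fold change of 0.74 ± 0.16 (SE), adjusted p 0.00966 by the same edgeR test. Per kilobase of transcript the mean levels were 1507 and 3128 CPM for MT1X and 522 and 874 CPM for MT1E in control and ENL. On that scale the order MT2A, MT1X, MT1E was the same in both groups.

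MT1M, MT1F and MT1G, further isoforms of the same cluster, were present at far lower levels. MT1M, at chr16:56632233-56633986 on the plus strand, was at 6.16, 6.86 and 5.88 CPM in control and at 8.52, 8.72 and 6.68 CPM in ENL. ENL library 3 was below control library 2, as for MT2A. The log2 fold change of MT1M was 0.34 ± 0.16 (SE) with an adjusted p of 0.128 in edgeR's test, and 0.47 with an adjusted p of 0.0391 without ENL library 3. With the correction for length and GC content it was 0.04.

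MT1F, at chr16:56657694-56660698 on the plus strand, was at 0.846, 0.802 and 0.576 CPM in control and at 5.13, 4.27 and 3.05 CPM in ENL. The groups were far apart, the lowest ENL library being well above the highest control library. The estimated counts behind these levels were 74, 65 and 49 in control and 350, 291 and 253 in ENL, which is few fragments. From means of 0.742 ± 0.145 and 4.15 ± 1.05 CPM (SD, n = 3 each), the log2 fold change was 2.48 ± 0.28 (SE) with an adjusted p of 0.000894 in edgeR's test. MT1F had the largest fold among the metallothioneins that passed the test and was still the scarcest of them, at 1.08 CPM per kilobase in control and 6.01 in ENL.

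MT1G, at chr16:56666731-56668065 on the minus strand, had estimated counts of 0, 7 and 16 in control and 63, 28 and 76 in ENL. All ENL libraries were above all control libraries. At 4 units per fragment this is about 6 fragments against 42, a ratio of 8.09 after scaling for depth, with a 95% exact interval of 3.42 to 23.3 that covers counting error only. The log2 fold change was 3.02 ± 1.01 (SE) and the adjusted p was 0.0527 in edgeR's test, and without control library 3 the log2 fold change was 4.09. The DESeq2 Wald test gave an adjusted p of 0.00919 and limma-voom 0.0385. MT1G reached the minimum count of 10 in every ENL library but in control only in library 3. It thus entered these tests through the group where it was high, and the p-values are no separate support for a rise. With no filter on low counts the adjusted p in edgeR's test was 0.0674. With counts divided by 4, MT1G was too low to test. MT1G and MT1X share the longest run of coding bases among the members, 96 bases, so a few reads of the abundant gene could be counted for the scarce one. Whether that bears on MT1G was not tested.

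The make-up of the metallothionein pool differed between the groups, as did its size on the TMM scale. Summed over the family, the level was 5255, 5911 and 4839 CPM in control and 8729, 9068 and 6105 CPM in ENL, so every ENL library was higher on that scale. The means were 5335 ± 540.5 and 7967 ± 1622 CPM (SD, n = 3 each), a ratio of 1.49, and this sum is not affected by how reads were divided among the copies that are in it. As a share of unscaled library totals the family took 0.568%, 0.627% and 0.523% in control and 0.801%, 0.818% and 0.594% in ENL. There ENL library 3 was below control library 2, so the groups overlapped. Ribosomal protein genes took 7.67 ± 0.22% of counts in control and 11.9 ± 1.27% in ENL (SD, n = 3 each). Whether short transcripts in general differed between the groups was not tested. With transcript length and GC content corrected for, the log2 fold changes were 0.12 for MT2A, 0.79 for MT1X (adjusted p 0.000103) and 0.52 for MT1E (adjusted p 0.00283), so those of MT1X and MT1E were smaller and still passed edgeR's test. MT2A made up 77.5 ± 0.53% of the family's counts in control and 70.7 ± 0.26% in ENL (SD, n = 3 each). MT1X made up 15.2 ± 0.77% and 21.1 ± 0.12%, and MT1E 7.12 ± 0.26% and 8.04 ± 0.29%. The share of MT2A was thus lower in each ENL library than in each control library, and the shares of MT1X and MT1E were higher. No test is given for these shares, since they are built from the members.

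Setting each gene against MT2A in the same library took out much of the distance of ENL library 3 from the other ENL libraries. For every 1000 MT2A counts there were 189, 191 and 210 MT1X counts in the control libraries and 301, 297 and 299 in the ENL libraries. The ENL values differed by an SD of 1.91 around a mean of 299, against 347 CPM around 1683 CPM for the MT1X level itself. MT1E counts per 1000 MT2A counts were 92.9, 94.0 and 88.8 in control and 112, 111 and 119 in ENL. MT1F gave 0.207, 0.175 and 0.155 in control and 0.831, 0.664 and 0.709 in ENL. These ratios were 1.52-fold (MT1X), 1.24-fold (MT1E) and 4.11-fold (MT1F) higher in ENL, without overlap. MT1M did not follow them, with 1.51, 1.49 and 1.58 in control and 1.38, 1.36 and 1.55 in ENL, which overlapped.

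**Figure D3:**
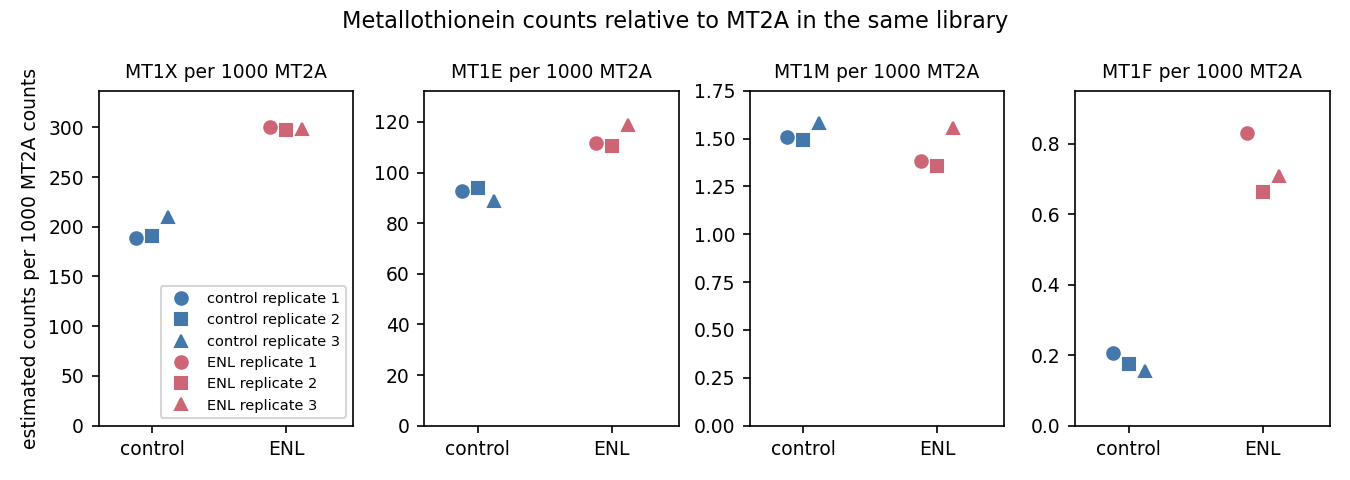
Estimated counts of MT1X, MT1E, MT1M and MT1F for every 1000 MT2A counts in the same library (y axes, linear from 0) in control and ENL (x axes), 1 point per library. MT1X sits at 297 to 301 in the ENL libraries against 189 to 210 in control, and MT1M overlaps between the groups.

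The rest of the family was low or at 0. MT3, a form known from brain, had estimated counts of 23, 46 and 50 in control and 18, 23 and 10 in ENL, a log2 fold change of −0.98 ± 0.59 (SE) with an adjusted p of 0.231 in edgeR's test. MT1A had counts of 24, 7 and 10 in control and 0, 13 and 5 in ENL and was too low to test. MT1B, MT1H, MT1HL1 and MT4 were at 0 in all 6 libraries, where a count of 0 allows up to 3 fragments, or 0.137 to 0.176 CPM by library. Over the whole family, 12 genes were in the table, 7 were tested, 3 rose, none fell and 4 did not pass. Of all tested genes 20.0% were called higher, 18.4% lower and 38.4% in all, so the share called was near that of all tested genes. The median log2 fold change of the 7 was 0.74, against −0.02 for all tested genes. The 7 include MT1G, which entered the tests through the group where it was high. MT1L was not analysed here.

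MTF1, the zinc sensor, is at chr1:37809567-37859620 on the minus strand and was close to even between the groups. It was at 26.9, 27.7 and 26.9 CPM in control and at 21.9, 25.3 and 25.3 CPM in ENL. Each ENL library was below each control library, by a small margin for ENL libraries 2 and 3. The log2 fold change was −0.17 ± 0.10 (SE) with an adjusted p of 0.217 in edgeR's test, from means of 27.2 ± 0.475 and 24.2 ± 1.95 CPM (SD, n = 3 each). When libraries were scaled by their totals alone it was −0.37 with an adjusted p of 0.0296. That scaling moved the median of all tested genes to −0.23, so relative to the median MTF1 changed little between the scalings. The RNA level does not measure how much MTF1 protein was in the nucleus or bound to DNA.

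The exporter and the importer among the 9 genes moved in opposite directions. SLC30A1, the exporter, at chr1:211571568-211578742 on the minus strand, was at 34.8, 32.5 and 33.6 CPM in control and at 49.1, 42.7 and 53.4 CPM in ENL. All ENL libraries were higher than all control libraries, and here ENL library 3 was the highest of its group. Its means were 33.6 ± 1.15 and 48.4 ± 5.35 CPM (SD, n = 3 each), a log2 fold change of 0.53 ± 0.11 (SE) with an adjusted p of 0.00809 in edgeR's test. Scaling by library totals alone gave 0.32 with an adjusted p of 0.0785. That scaling moved the median of all tested genes from −0.02 to −0.23, so relative to the median SLC30A1 changed little between the scalings. SLC39A10, the importer, at chr2:195575977-195737702 on the plus strand, was at 17.0, 15.6 and 16.3 CPM in control and at 7.76, 7.79 and 9.93 CPM in ENL. The groups were well apart, with ENL library 3 nearest to the controls. SLC39A10 had means of 16.3 ± 0.703 and 8.50 ± 1.24 CPM (SD, n = 3 each), and a log2 fold change of −0.94 ± 0.14 (SE) with an adjusted p of 0.00242 in edgeR's test. The ratio of SLC30A1 to SLC39A10 counts was 2.04, 2.08 and 2.06 in control and 6.33, 5.48 and 5.37 in ENL, so it differed little within control and was 2.78-fold higher in ENL. The transcripts of SLC30A1 and SLC39A10 are 5474 and 5432 bases long at most. With transcript length and GC content corrected for, the log2 fold change was 0.59 for SLC30A1 (adjusted p 0.00043 in edgeR's test). For SLC39A10 it was −0.88 (adjusted p 0.000765 by the same test).

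**Figure D4:**
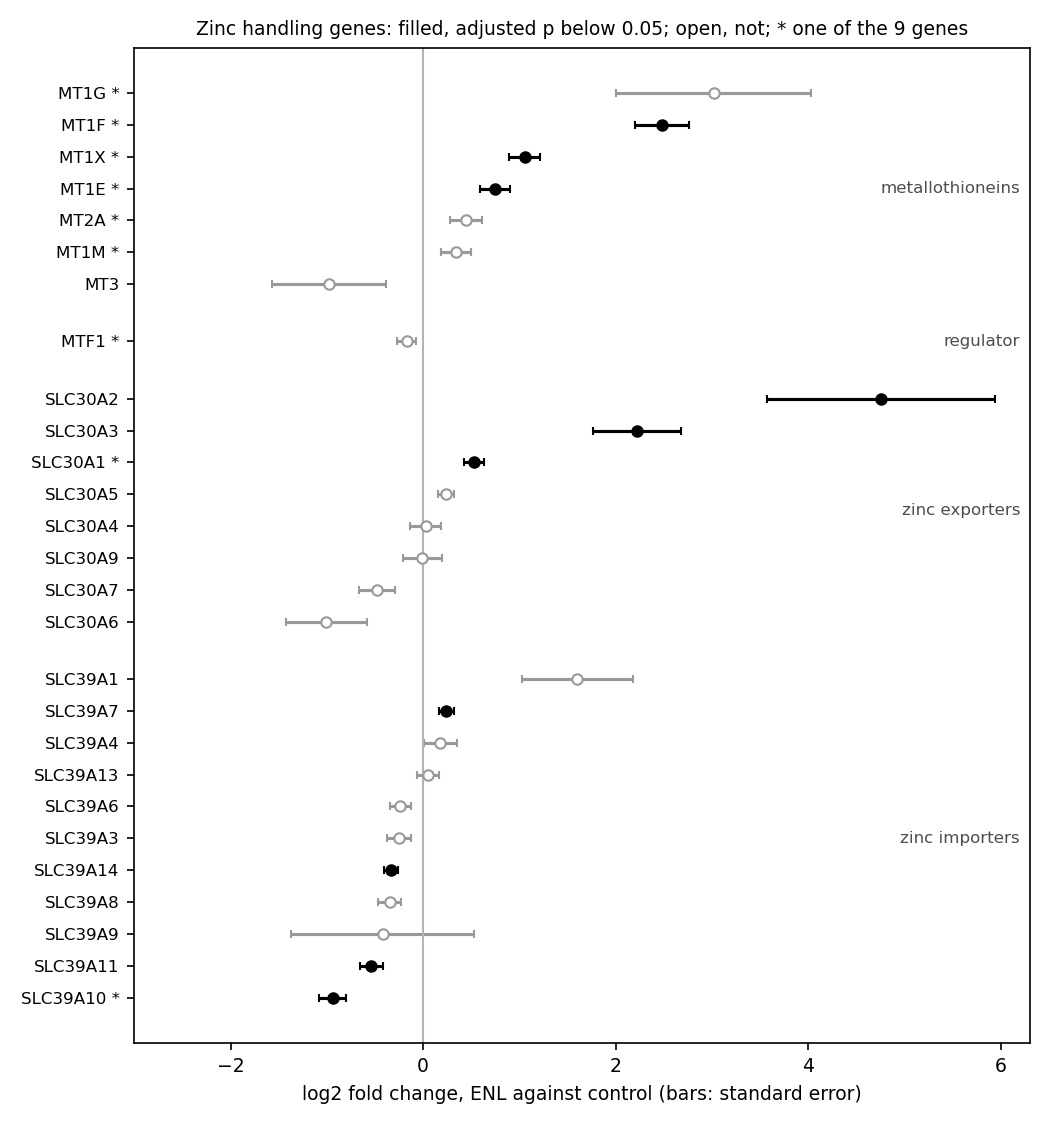
Log2 fold change of ENL against control (x axis) with its standard error for the tested metallothioneins, MTF1, zinc exporters and zinc importers (y axis), 1 point per gene. Filled points have an adjusted p below 0.05, and stars mark the 9 genes. The filled exporters are to the right of 0, and 3 of the 4 filled importers are to the left. SLC30A2, a filled exporter, entered the test through the group where it was high.

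Among the zinc exporters, the SLC30A family with TMEM163, 11 genes were in the table and 8 were tested. Of these, 3 rose, none fell and 5 did not pass, where 20.0% of all tested genes were called higher, 18.4% lower and 38.4% in all. The share called was thus near that of all tested genes. The median log2 fold change was 0.13. The 3 that rose and this median include SLC30A2, which entered the test through the group where it was high. The exporters that rose beside SLC30A1 were SLC30A2, which loads zinc into vesicles and secretory granules, and SLC30A3, which loads zinc into synaptic vesicles. Both were very low. SLC30A2 had estimated counts of 12, 0 and 0 in control and 59, 105 and 124 in ENL. At 4 units per fragment this is about 3 fragments against 72, a ratio of 27.7 with a 95% exact interval of 9.11 to 138, for counting error only. All control counts came from control library 1. Without it the level in ENL was at least 8.77-fold higher, against what 3 fragments per library would give. The adjusted p of SLC30A2 was 0.0200 in edgeR's test, 0.0571 without ENL library 2 and 0.0502 without ENL library 3. SLC30A2 reached the minimum count of 10 in every ENL library but in control only in library 1. It thus entered the test through the group where it was high, and its p-values are no separate support for the rise. With no filter on low counts the adjusted p in edgeR's test was 0.0297. SLC30A3 was at 0.137, 0.358 and 0.212 CPM in control and at 1.13, 0.954 and 1.23 CPM in ENL, a log2 fold change of 2.22 ± 0.45 (SE) with an adjusted p of 0.00876 by the same test. SLC30A5, SLC30A4, SLC30A9, SLC30A7 and SLC30A6 did not pass, with log2 fold changes from 0.24 for SLC30A5 to −1.01 for SLC30A6.

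Among the zinc importers, the SLC39A family, 14 genes were in the table and 11 were tested. Of these, 1 rose, 3 fell and 7 did not pass, a share called near the 38.4% of all tested genes. The median log2 fold change was −0.25. Beside SLC39A10 the genes that fell were SLC39A11 and SLC39A14, the latter a carrier of zinc, iron and manganese. SLC39A11 went from 20.0 ± 1.30 to 13.8 ± 1.40 CPM (SD, n = 3 each), a log2 fold change of −0.54 with an adjusted p of 0.0126 in edgeR's test and 0.0552 without control library 3. SLC39A14, the most abundant tested importer per kilobase of transcript, went from 383 ± 14.2 to 304 ± 14.8 CPM (SD, n = 3 each), a log2 fold change of −0.33 with an adjusted p of 0.0123 and 0.0563 without control library 2. SLC39A7, which releases zinc from the endoplasmic reticulum, rose by 0.24 on the log2 scale with an adjusted p of 0.0487 in edgeR's test, and this call was lost under 12 of 16 other settings. SLC39A7 shares 244 exon bases with RXRB on the opposite strand. Outside the rule for named genes, and chosen after its values were seen, SLC39A1 was uneven: 37.7, 37.1 and 38.1 CPM in control and 133, 177 and 33.3 CPM in ENL. ENL libraries 1 and 2 were far above the controls and ENL library 3 was below them, and the adjusted p was 0.0743 in edgeR's test. The annotation gives SLC39A1 2061 exon bases in common with AL358472.7 on the same strand, a gene listed at 0 in all 6 libraries.

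Copper handling was examined because metallothioneins bind copper as well. All 14 genes of the list were tested: 2 rose, 4 fell and 8 did not pass, near the 38.4% called over all tested genes, with a median log2 fold change of −0.17. SCO1, which hands copper to cytochrome c oxidase in mitochondria, fell from 105 ± 5.76 to 37.7 ± 13.4 CPM (SD, n = 3 each), a log2 fold change of −1.47 ± 0.24 (SE) with an adjusted p of 0.00435 in edgeR's test. COX11, which serves the same enzyme, fell by 1.05 on the log2 scale with an adjusted p of 0.0474, a call lost under 6 of 16 other settings, and by 0.57 without control library 1. SLC31A2, a copper transporter of internal membranes, fell by 1.07 with an adjusted p of 0.00716. STEAP3, a metalloreductase of the endosome, fell by 0.61 with an adjusted p of 0.00323. CCS, the copper chaperone of superoxide dismutase, rose from 16.4 ± 0.780 to 26.6 ± 3.32 CPM (SD, n = 3 each), a log2 fold change of 0.70 ± 0.12 (SE) with an adjusted p of 0.00496. COMMD1, a regulator of copper export, rose by 0.34 with an adjusted p of 0.0471, a call lost under 11 of 16 other settings. SLC31A2 shares 1579 exon bases with FKBP15, COX11 shares 909 with TOM1L1 and CCS shares 263 with CCDC87, each on the opposite strand, so reads of these pairs may be mixed if the counting ignored strand.

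A last list held 11 genes, namely reported targets and partners of MTF1 outside the metallothioneins and transporters and also MTF2. MTF2 is a Polycomb accessory protein that is on the list for its name, which recalls the metal response element. All 11 were tested, 3 rose, 1 fell and 7 did not pass, near the 38.4% called over all tested genes, with a median log2 fold change of 0.00. MTF2 rose from 23.7 ± 8.07 to 66.1 ± 6.10 CPM (SD, n = 3 each), by 1.48 ± 0.23 (SE) on the log2 scale with an adjusted p of 0.00368 in edgeR's test. SP1, a general transcription factor, rose by 0.74 with an adjusted p of 0.000851. CSRP1, a LIM protein, rose by 0.33 with an adjusted p of 0.0101, and with library totals alone its adjusted p was 0.201. NDRG1, a stress-responsive gene, fell by 0.60 with an adjusted p of 0.000764. GCLC, which makes the rate-limiting subunit of glutathione synthesis, had a log2 fold change of 0.00.

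MT2A, MT1X, MT1E and MT1M varied together within the groups. Over the 6 libraries, deviations from the group mean of log2 CPM correlated at r = 0.996 for MT1M and MT2A, 0.982 for MT1E and MT2A and 0.973 for MT1X and MT2A. MT1F followed less closely, with r from 0.75 to 0.87 against those 4, and MT1G did not, with r from −0.12 to −0.51 against the others. The values are scaled for depth, but the short-transcript shift of ENL library 3 remains, so these are descriptions without a test. Reads of such similar genes can also be divided between them in counting, and MT1M stayed at 1.36 to 1.58 counts per 1000 MT2A counts in all 6 libraries. Whether divided reads bear on these correlations was not tested. Outside the family, the genes whose deviations were most like the members' mean profile over the 6 libraries were MMAB (r = 0.9991), PDCD2L (0.9986), MRPL14 (0.9981), ARFGAP2 (0.9977) and TAGLN2 (0.9969). By log2 CPM itself they were ARFGAP2 (0.9995), FZD2 (0.9987), NPY (0.9981), MGMT (0.9978) and RPS28 (0.9972), where the 6 points fall into the control and ENL groups.

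Genes that flank the cluster were looked at after the members' values were known. BBS2, the nearest tested gene on the lower-coordinate side at 44.8 kb, had a log2 fold change of 0.04 with an adjusted p of 0.890 in edgeR's test. Farther out on that side, OGFOD1 at 85.9 kb fell by 0.37 with an adjusted p of 0.0118 by this test. NUDT21 at 112.8 kb had a log2 fold change of 0.03 with an adjusted p of 0.831. NUP93, the nearest on the other side at 45.9 kb, fell by 0.23 with an adjusted p of 0.0352. The next tested gene beyond NUP93 was HERPUD1, a gene of the endoplasmic reticulum stress response, 247.9 kb from the cluster. HERPUD1 rose from 111 ± 9.09 to 387 ± 40.2 CPM (SD, n = 3 each), a log2 fold change of 1.80 ± 0.11 (SE) with an adjusted p of 7.58e-05 in the same test. Beyond it NLRC5, 305.3 kb from the cluster, fell by 0.64 with an adjusted p of 0.0391 by that test.

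**Figure D5:**
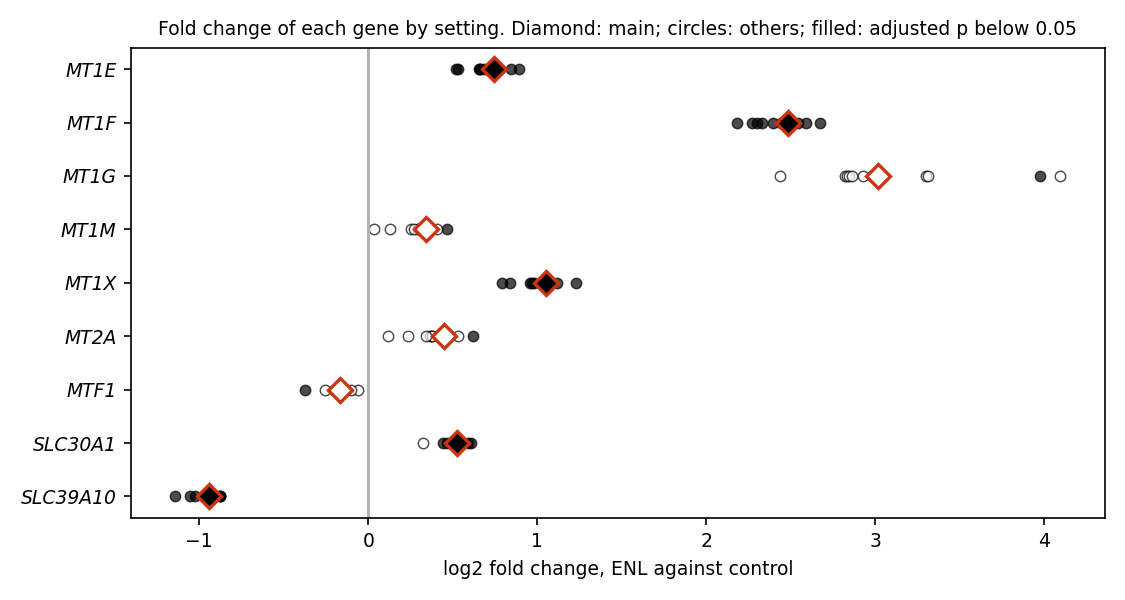
Log2 fold change of ENL against control (x axis) for each of the 9 genes (y axis) under every setting tried, 1 circle per setting and a diamond for the values in the text. Filled marks have an adjusted p below 0.05. No gene changed side of 0, and MT1E, MT1X, MT1F and SLC39A10 are filled under each setting in which they could be tested.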

How the data were processed

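RNA sequencing of 3 control and 3 ENL-treated BT549 samples was analysed from the authors' deposited table, which gives 1 estimated count per gene and sample. Per the submitters' processing notes, the tools were FastQC, STAR, StringTie and DESeq2 and the build was hg38, without versions or roles. The annotation and strand setting were not given in these sources. The values were whole numbers and needed no rounding. Columns were matched to samples by title.

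The 9 genes, the pathway lists and the rule for named genes were chosen with earlier results of these data known. The rule names all members, other metallothioneins in the table, up to 4 genes per direction past the threshold from each other list by size of log2 fold change, and the 5 genes most like the metallothioneins by each of 2 measures. Calls over whole tables used filterByExpr (minimum count 10), TMM and the two-sided quasi-likelihood F test of edgeR 4.0.16 in R 4.3.3, with Benjamini-Hochberg adjustment over 14086 genes. Calls have an adjusted p below 0.05, and group was the only term of the model. An exact permutation test of 3 against 3 libraries cannot go below a two-sided p of 0.10, so none is given. DESeq2 1.42.0 and limma 3.58.1 served as alternatives, beside other scalings, filters, a replicate block, counts divided by 4, a length and GC correction and each library left out. The scripts were tested on simulated data. Replicates differed by more than sampling noise (chi-square per degree of freedom 20.2 to 52.3), so all 6 libraries were counted. Symbols were matched to GENCODE 29 for 19811 genes (99.4%). CPM per kilobase uses the longest annotated transcript. Fragment numbers and their intervals assume 4 units per fragment.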

Additional observations from a re-analysis of the deposited data

How the results depend on the processing

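Over 16 other settings, with fewer where a filter removed a gene, no member changed direction: of 140 combinations of a member and a setting, 132 stayed on the same side of the threshold, called or not, 7 gained a call and 1 lost it. The loss was SLC30A1 with library totals alone. MT2A was called with the DESeq2 Wald test (adjusted p 0.0396) and without ENL library 3, and its adjusted p over all settings was 0.00491 to 0.226. In the main analysis 8 of the other pathway genes were called higher and 7 lower, a share of those tested near the 38.4% of all tested genes. The 8 include SLC30A2, which entered the test through the group where it was high. Library totals alone gave 1804 genes called higher and 3996 lower in place of 2819 and 2585, with 2 members lower, 5 other pathway genes higher and 14 lower, and 31.1% of calls higher in place of 52.2%. Upper-quartile scaling gave 42.9% of calls higher. It also gave 12 other pathway genes lower, as did the DESeq2 Wald test and the length and GC correction, and keeping only genes at 10 CPM or more in 3 libraries gave 4 higher. The cause was not tested, except that the filter left fewer genes to test. With each library left out in turn, calls were 2072 to 3156 genes higher and 1743 to 2877 lower, in all 26.6% to 41.8% of all tested genes. Calls among members were 4 to 6 higher and 1 lower, and among other pathway genes 5 to 9 higher and 6 to 9 lower. The log2 ratio of summed metallothioneins was 0.48 to 0.75. The replicate block gave 5 members higher, with MT2A at an adjusted p of 0.0332, 1 member lower and 5 other pathway genes higher, and SLC30A2 lost its call at 0.0600. With the block 35.1% of all tested genes were called. Whether control and ENL libraries with the same replicate number belong together is not in the labels. Deviations of same-numbered libraries correlated at 0.03, 0.05 and 0.08, and 2 of 3 matched their own number best. Correlations this weak cannot decide it. Genes under about 10 units, and folds of MT1G and SLC30A2, are limited by few fragments.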
